A study of Mus musculus with 11 samples.

Results

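The REG family was examined in mouse pancreatic tumours grown in hosts with or without protein kinase N2 (PKN2). All 7 REG genes listed for the mouse were taken by symbol (Reg1, Reg2, Reg3a, Reg3b, Reg3d, Reg3g and Reg4), and each was found among the 54232 gene identifiers of the count table. RNA was sequenced from 11 orthotopic tumours, of which 6 came from KO hosts (Pkn2 fl/fl, letters A to F) and 5 from WT hosts (Pkn2 +/+, letters A to E). Every host was a female C57BL/6 mouse of 24 to 28 weeks that carried 1 RosaCreERT2 allele and had received tamoxifen, and every tumour grew from 1000 TB32048 cells, a pancreatic ductal carcinoma line from a female KPC mouse, placed in the pancreas with Matrigel. Because Rosa26 drives CreERT2 in all cell types, the KO hosts lacked Pkn2 in the pancreas around the tumour as well as in the stroma, whereas the carcinoma cells, from 1 line, kept it. Letters shared between KO and WT tumours name different animals.

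REG proteins are small secreted C-type lectins. Reg1 and Reg2 are made by the acinar cells of the normal pancreas and pass into pancreatic juice, and Reg3b, known as pancreatitis-associated protein, is a classic acinar response gene of acute pancreatitis. Reg3g is best known as a gut lectin that binds the peptidoglycan of Gram-positive bacteria, Reg3d is related to the islet neogenesis associated protein, and Reg4 marks secretory cells of the colon. Cytokines that signal through Stat3, such as interleukin 6 and interleukin 22, induce several Reg3 genes, and the glycosyltransferase-like protein Extl3 has been described as a receptor for REG proteins.

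Of the 7 genes, 6 lie in 1 cluster on mouse chromosome 6 that covers 98216 bases (GRCm38, chr6:78370657-78468872), in which the GENCODE M21 annotation lists 6 genes and all 6 are REG genes. In order along the chromosome they are Reg3b (chr6:78370657-78373466, plus strand), Reg3d (chr6:78375874-78378865, minus strand), Reg3a (chr6:78380709-78383827, plus strand), Reg2 (chr6:78395623-78408106, plus strand), Reg1 (chr6:78422711-78428667, plus strand) and Reg3g (chr6:78466269-78468872, minus strand). Reg4 stands alone on chromosome 3 (chr3:98222156-98236748, plus strand). All 7 are protein coding, and no other annotated gene overlaps any of them. The counts therefore have no neighbour on either strand to share reads with, but the members resemble each other. The coding sequences of Reg1 and Reg2 were 78.8% identical and those of Reg3b and Reg3g 76.0%, while Reg4 was between 49.8% and 53.9% identical to the others. No stretch as long as 1 sequenced read in the transcripts of any member occurred in a second gene. Shorter stretches did for the closest pair, since 32 of 876 distinct 50-base stretches of Reg1 and 39 of 899 of Reg2 were also found elsewhere, a length that only strongly trimmed reads would have.

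The 250 bases before the RefSeq start of transcription are shown for 3 members of the cluster, because Reg2 and Reg3d were nearly confined to the 3 tumours richest in REG counts whereas Reg3g was not, and because these windows overlap no exon of their own gene in GENCODE. Capitals mark matches to 4 short motifs searched on both strands: CACCTG, the form of the E-box bound by the acinar factor complex PTF1, TTCCC, the core of the other PTF1 contact, TTCNNNGAA, the palindrome bound by STAT factors, and the TATA box TATAAA. The sequences are from RefSeq on GRCm38.p6, written 5′ to 3′ on the strand of the gene, Reg2 from chr6:78404905-78405154 (plus), Reg3d from chr6:78378866-78379115 (minus) and Reg3g from chr6:78468875-78469124 (minus).
Reg2: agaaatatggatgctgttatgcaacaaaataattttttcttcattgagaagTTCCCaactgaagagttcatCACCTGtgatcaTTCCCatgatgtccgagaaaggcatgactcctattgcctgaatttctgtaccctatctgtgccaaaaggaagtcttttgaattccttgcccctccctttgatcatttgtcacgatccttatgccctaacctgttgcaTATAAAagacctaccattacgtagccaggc
Reg3d: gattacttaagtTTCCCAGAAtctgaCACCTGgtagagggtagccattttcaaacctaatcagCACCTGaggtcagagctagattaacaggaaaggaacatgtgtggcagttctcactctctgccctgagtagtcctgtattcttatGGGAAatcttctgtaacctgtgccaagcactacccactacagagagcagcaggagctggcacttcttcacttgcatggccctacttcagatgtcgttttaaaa
Reg3g: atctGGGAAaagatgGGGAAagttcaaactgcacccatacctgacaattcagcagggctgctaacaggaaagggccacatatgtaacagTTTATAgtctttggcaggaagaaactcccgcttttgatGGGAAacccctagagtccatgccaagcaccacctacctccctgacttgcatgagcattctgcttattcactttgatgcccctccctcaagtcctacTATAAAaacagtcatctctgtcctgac
CACCTG was found in 5 of the 7 REG windows, all except those of Reg1 and Reg3g, and in 17.2% of 32851 mouse promoter windows of the same length. TTCCC was found in 6 of the 7 and in 56.2% of all windows, and TATAAA in 4 of the 7 and in 12.4%. The STAT palindrome was found in Reg3b and Reg3d only, 2 of 7 windows against 7.02% of all, and in Reg3d it overlaps a TTCCC match. CACCTG and TTCCC were added to the search after the windows had been read, and a match describes letters and not a bound site. The RefSeq starts of Reg1, Reg2 and Reg3b lie downstream of the GENCODE gene start. Their windows therefore fall wholly or partly inside the gene as GENCODE places it.

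Libraries held between 16294128 counts (WT B) and 31121422 counts (WT E), so that 3 counts, used here as the limit of detection, correspond to between 0.0887 (WT E) and 0.250 (WT B) CPM (counts relative to library sizes scaled by the TMM method of edgeR). WT B also stood apart in its share of ribosomal RNA, 6.39% of counts against 0.241% to 1.40% in the other libraries. Pkn2 itself did not differ (KO 96.6 ± 9.34 CPM, SD, n = 6, and WT 96.7 ± 34.6 CPM, SD, n = 5, edgeR adjusted p = 0.996). Because the carcinoma cells of both groups carry the gene, this does not check the labels. Epithelial markers were detected in each piece. Epcam, an epithelial adhesion molecule, was between 10.2 and 42.4 CPM in KO tumours and between 3.50 and 287 CPM in WT tumours. Such markers do not tell carcinoma from other epithelium.

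REG transcripts were concentrated in a few tumours of both genotypes. Summed over the 7 genes, REG counts were 10, 8, 88, 7, 4965 and 172 in KO tumours A to F and 1845, 39, 460, 11 and 26483 in WT tumours A to E. WT E and KO E stood highest, WT A came next, and 5 tumours, of both genotypes, held 39 REG counts or fewer each. WT E alone carried between 60.0% (Reg3g) and 85.7% (Reg3a) of the summed counts of each cluster gene, and the 3 highest tumours of each gene together carried 98.1% or more of Reg1, Reg2, Reg3a, Reg3b and Reg3d. Reg3g was spread more widely, with 83.7% in its 3 highest tumours.

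**Figure D1:**
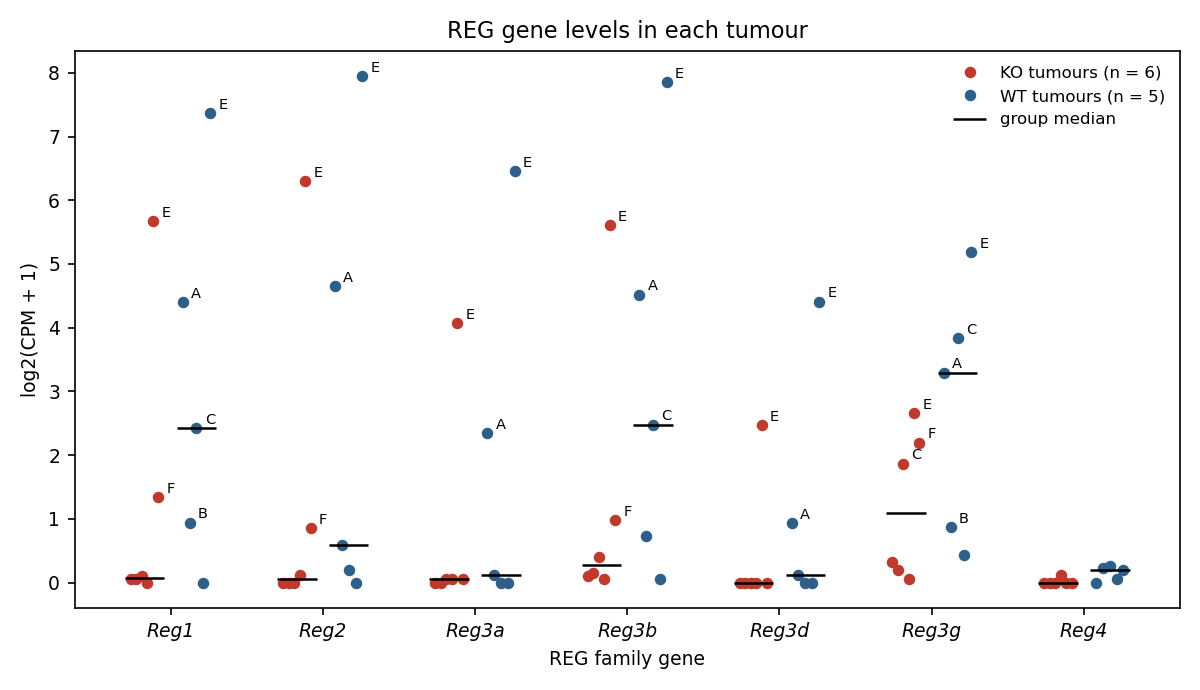
Level of each REG gene in each tumour, in log2(CPM + 1) on the vertical axis, with KO tumours in red (n = 6), WT tumours in blue (n = 5), replicate letters beside the higher points and a bar at each group median. KO E and WT E stand above all other tumours of their group for Reg1, Reg2, Reg3a, Reg3b and Reg3d, and the groups overlap for every gene.

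The acinar lectins Reg1 and Reg2 exceeded 3 counts in 2 KO tumours each, and in 4 and 3 WT tumours. Reg1 (ENSMUSG00000059654) had 1, 1, 2, 0, 1236 and 38 counts in KO tumours A to F and 465, 11, 89, 0 and 5553 counts in WT tumours A to E. KO D and WT D had no Reg1 count, and the highest KO tumour exceeded 4 of the 5 WT tumours. Group means were 8.65 ± 20.4 CPM in KO (SD, n = 6) and 37.9 ± 71.0 CPM in WT (SD, n = 5), which gave a log2 fold change of −2.14 ± 1.82 (standard error, edgeR, adjusted p = 0.483). Reg2 (ENSMUSG00000023140) had 0, 0, 0, 2, 1914 and 20 counts in KO tumours and 557, 6, 3, 0 and 8326 counts in WT tumours, in the same order of letters. It was more unevenly divided than Reg1, with 4 tumours at 0 and 76.9% of its counts in WT E. Its means were 13.1 ± 31.7 CPM in KO and 54.2 ± 108 CPM in WT, and the log2 fold change −2.002 ± 1.84 (SE, edgeR without the expression filter, adjusted p = 0.528).

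The Reg3 genes of the cluster fell into a pair of patterns, Reg3a, Reg3b and Reg3d on 1 side and Reg3g on the other. Reg3b (ENSMUSG00000071356), the pancreatitis-associated protein, had 2, 3, 9, 1, 1183 and 24 counts in KO tumours A to F and 505, 8, 93, 1 and 7782 counts in WT tumours A to E. It exceeded 3 counts in 3 KO and 4 WT tumours and had at least 1 count in all 11. Its means were 8.26 ± 19.5 CPM in KO (n = 6) and 51.4 ± 100 CPM in WT (n = 5), and the log2 fold change −2.65 ± 1.81 (SE, edgeR adjusted p = 0.382). Reg3a (ENSMUSG00000079516) had 0, 0, 1, 1, 389 and 1 counts in KO tumours and 94, 1, 0, 0 and 2930 counts in WT tumours. Only KO E, WT A and WT E held more than 1 count of it. Its means were 2.65 ± 6.44 and 18.2 ± 38.3 CPM, and the log2 fold change −2.74 ± 1.78 (SE, edgeR without the filter, adjusted p = 0.425). Reg3d (ENSMUSG00000068341), the islet neogenesis related member, had 112 counts in KO E and 0 in the other KO tumours, and 21, 1, 0, 0 and 685 counts in WT tumours A to E. With 7 of 11 tumours at 0, its log2 fold change came to −2.46 ± 1.65 (SE, edgeR without the filter, adjusted p = 0.440).

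Reg3g (ENSMUSG00000030017), the peptidoglycan-binding lectin, was the member seen above 3 counts in the most tumours, 5 of 6 KO and 5 of 5 WT. It had 7, 4, 76, 1, 131 and 89 counts in KO tumours A to F and 203, 10, 271, 9 and 1202 counts in WT tumours A to E. WT C, which was low in Reg2 and without Reg3a, was second only to WT E in Reg3g, and KO C and KO F stood close behind KO E. Means were 2.00 ± 2.21 CPM in KO (SD, n = 6) and 11.8 ± 14.4 CPM in WT (SD, n = 5). The log2 fold change of −2.57 ± 1.15 (SE) had an unadjusted p of 0.0441 and an adjusted p of 0.196 in edgeR, and KO E, KO F and KO C each exceeded WT B and WT D.

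Reg4 (ENSMUSG00000027876), outside the cluster, was at or near the limit of detection everywhere. It had 2 counts in KO D and 0 in the other KO tumours, and 0, 2, 4, 1 and 5 counts in WT tumours A to E. At these depths a difference was not measurable, so no fold change is given (edgeR without the filter, adjusted p = 0.265).

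No REG gene differed between genotypes beyond the spread between tumours. By the default edgeR filter on low counts, Reg1, Reg3b and Reg3g (3 of 7) were tested together with all other genes, and 0 of these 3 passed an adjusted p of 0.05, against 0.0181% of all 16536 tested genes. The other 4 members were tested in a fit without the filter, in which 0 of 7 passed, against 0.152% of 29689 genes, and Reg3g and Reg4 (2 of 7) were lower in KO at an unadjusted p under 0.05, as were 9.63% of the 29689. At an unadjusted p under 0.05, Reg3g was lower in KO in the filtered fit, as were 15.5% of all tested genes. The 3 that passed the filter did so through tumours where they were high, and all 3 had lower fitted values in KO. DESeq2 called none of the 7. It gave only Reg3g an adjusted p, 0.178, and returned no p-value for Reg1, Reg2, Reg3a, Reg3b and Reg3d, which it set aside for an extreme count. In bulk RNA, fewer cells of a type and less RNA per cell cannot be told apart.

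The sign of the fold change rested on single tumours for 5 of the 6 cluster genes. Without WT E, fitted log2 fold changes turned to 0.43 for Reg1, 1.14 for Reg2, 1.38 for Reg3a, 0.27 for Reg3b and 1.60 for Reg3d. Without KO E they moved the other way, to −6.86, −8.27, −9.36, −7.43 and −9.74 in the same order, where the value of Reg3d depends on the prior count of the fit, as in every fit without KO E, because all remaining KO tumours were at 0. Reg3g kept its sign in both fits, at −1.55 without WT E and −3.15 without KO E. With both E tumours left out, the values were −4.26 for Reg1, −5.11 for Reg2, −5.23 for Reg3a, −4.50 for Reg3b, −5.61 for Reg3d and −2.13 for Reg3g, with edgeR adjusted p between 0.0733 and 0.269. Leaving out WT A as well, the next highest tumour, brought Reg2 to −0.08 and Reg3a to 0.19. Once the E tumours were removed, the differences of Reg2 and Reg3a thus rested on WT A. In the same fit Reg1 stayed at −2.41, Reg3b at −2.55 and Reg3g at −1.86 (edgeR adjusted p between 0.222 and 0.412). Reg3d came to −2.24 (edgeR adjusted p = 0.485), a value that depends on the prior count. Outside the E tumours its only counts were 21 in WT A and 1 in WT B.

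**Figure D2:**
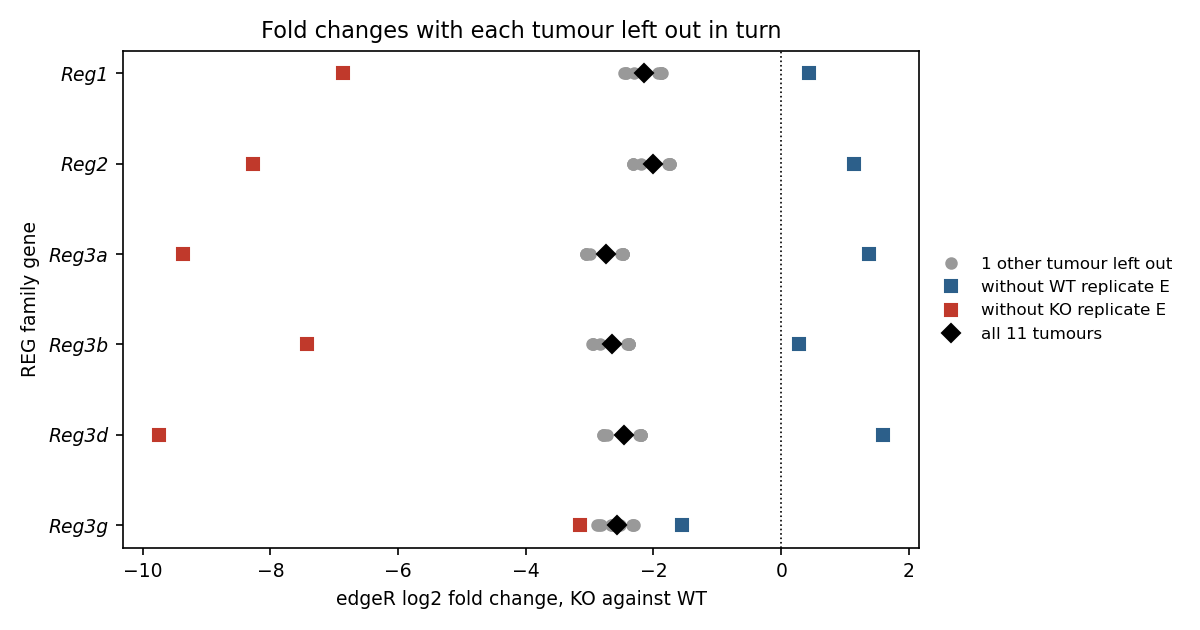
edgeR log2 fold change of KO against WT for each cluster gene, with all 11 tumours (black diamonds) and with 1 tumour left out at a time (grey points, red squares without KO E, blue squares without WT E). For Reg1, Reg2, Reg3a, Reg3b and Reg3d the fit without WT E lies above 0 and the fit without KO E below −6, while the values of Reg3g stay between −3.15 and −1.55.

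Per kilobase of merged exons, the scale on which genes can be compared, Reg2 was the highest REG transcript wherever the family was abundant. In WT E the level was 258 CPM per kilobase for Reg2, 201 for Reg3b, 182 for Reg1, 105 for Reg3a, 25.9 for Reg3d and 16.8 for Reg3g. In KO E the levels were 81.7 for Reg2, 55.5 for Reg1, 42.1 for Reg3b, 19.2 for Reg3a, 5.82 for Reg3d and 2.52 for Reg3g, so that only Reg1 and Reg3b changed places. WT A, lower still, had 25.4 CPM per kilobase of Reg2, 22.3 of Reg1, 19.2 of Reg3b, 4.94 of Reg3a, 4.17 of Reg3g and 1.17 of Reg3d. WT C had a different order, with 6.30 CPM per kilobase of Reg3g, 4.84 of Reg1, 4.002 of Reg3b and 0.155 of Reg2. Over the 11 tumours the order of the means was Reg2 (33.4), Reg3b (24.4), Reg1 (24.3), Reg3a (11.8), Reg3g (3.05), Reg3d (2.998) and Reg4 (0.0562). Differences between neighbours in that order were not tested. The merged length of Reg3g, 2114 bases, includes a long exon that spans introns of its other transcript, which lowers its level per kilobase.

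The make-up of the REG counts separated tumours with high totals from those with middling totals. In WT E, Reg2 made up 31.4% of REG counts, Reg3b 29.4%, Reg1 21.0% and Reg3g 4.54%. KO E was close to it, with 38.5% Reg2, 24.9% Reg1, 23.8% Reg3b and 2.64% Reg3g, and WT A had 30.2% Reg2, 27.4% Reg3b, 25.2% Reg1 and 11% Reg3g. In these 3 tumours, of both genotypes, the acinar lectins were the larger part. In WT C, by contrast, Reg3g made up 58.9% of 460 REG counts (95% Wilson interval 54.4 to 63.3), and Reg2 only 0.652%. Reg3g also led in KO F, at 51.7% of 172 counts (44.3 to 59.1), and in KO C, at 86.4% of 88 counts (77.7 to 92.0). The intervals reflect counting alone, and PCR copies among the reads could not be recognised. The other 5 tumours held between 7 and 39 REG counts, too few for a make-up to be read.

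**Figure D3:**
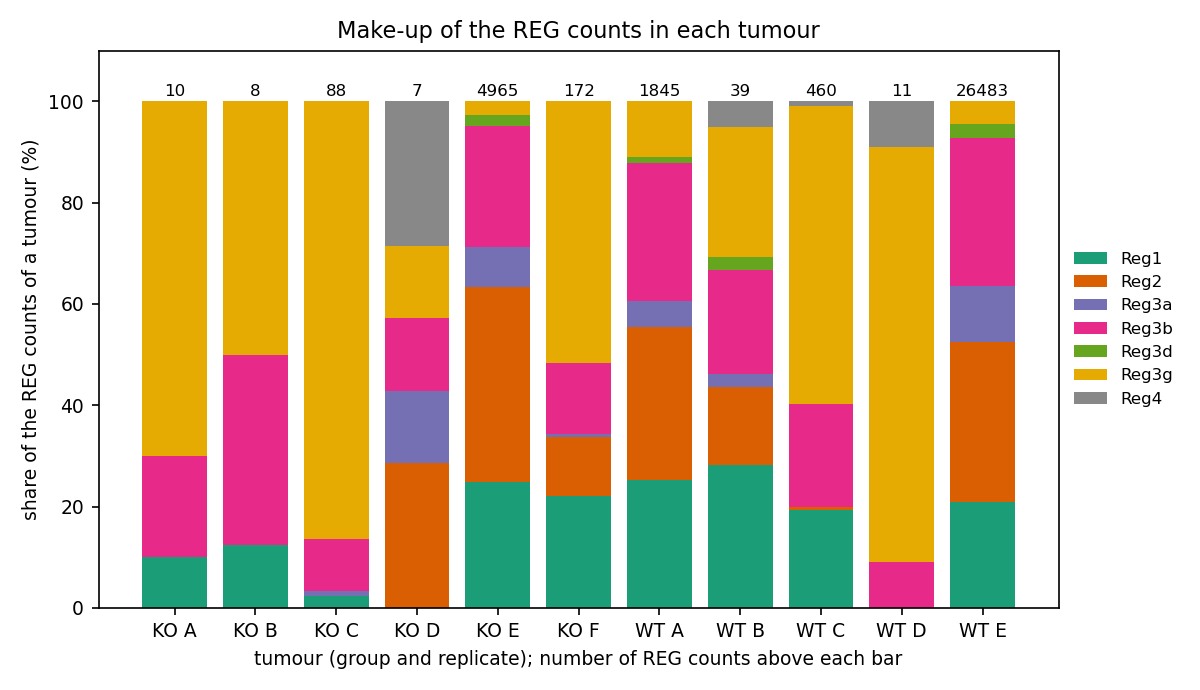
Share of each REG gene in the REG counts of each tumour, in percent, with the number of REG counts above each bar. Reg2, Reg3b and Reg1 fill most of the bars of WT E, KO E and WT A, whereas Reg3g (yellow) is the largest share in KO C, KO F and WT C.

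Markers of acinar cells were high in the same tumours. The acinar list of 28 genes (digestive enzymes, zymogen granule proteins and acinar transcription factors, no REG gene among them) summed to 12.4, 23.5, 12.6, 18.4, 1198 and 19.7 CPM in KO tumours A to F and to 369, 129, 37.3, 19.2 and 3471 CPM in WT tumours A to E. Thus WT E, KO E and WT A were the 3 highest for this list as well as for the REG sum, and none of its genes was at 0 in every tumour. The acinar-defining enzymes were abundant in few tumours, with Cpa1, a carboxypeptidase, between 0.00 and 51.1 CPM in KO and between 0.196 and 157 CPM in WT, and the lipase Pnlip and the elastase Cela2a reaching 86.1 and 171 CPM in WT E. Of 11 acinar genes that passed the expression filter, 0 passed the edgeR threshold, 1 was lower in KO at an unadjusted p under 0.05 (15.5% of all tested genes), DESeq2 called 1 lower, the elastase Cela1 (4.81% of all genes with a DESeq2 adjusted p), and their median log2 fold change was −1.83, against −0.03 over all tested genes. That median leaves out the genes removed by the filter, Cpa1, Pnlip and Cela2a among them. It was not recomputed without WT E, the tumour with the highest acinar sum. The part of acinar content in the REG differences between genotypes was not tested.

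In the 3 highest tumours the ratio of REG to acinar transcripts lay between 1.89 and 2.29. Per count of Cpa1, Pnlip and Cela2a together, WT E had 1.89 REG counts (26483 over 14003), KO E 1.92 (4965 over 2580) and WT A 2.29 (1845 over 806). For Reg2 alone the ratio was 0.595 in WT E, 0.742 in KO E and 0.691 in WT A. Tumours led by Reg3g had far higher ratios, 32.9 in WT C (460 over 14), 11.5 in KO F (172 over 15) and 44.0 in KO C (88 over 2), with few acinar counts below the line. In WT B the ratio was 0.907 (39 over 43), and the 4 other tumours had at most 11 REG counts.

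Across all 11 tumours, each of the 6 cluster genes correlated with the acinar level on the log2(CPM + 1) scale. Pearson's r was 0.951 for Reg1, 0.959 for Reg2, 0.939 for Reg3a, 0.947 for Reg3b and 0.913 for Reg3d (permutation test, two-sided, adjusted p between 0.00063 and 0.000672 over 12 relations), and Spearman's rho was between 0.707 and 0.863 (permutation adjusted p between 0.0036 and 0.0422). For Reg3g r was 0.715 (permutation adjusted p = 0.0268) and rho 0.700 (permutation adjusted p = 0.0422). Without the 2 tumours farthest from the median acinar level, WT E and KO E, r was between 0.802 and 0.853 for the first 5 genes (permutation adjusted p = 0.0465) and 0.467 for Reg3g (permutation adjusted p = 0.400). Without WT A as well, in 8 tumours, r was 0.465 for Reg1, 0.492 for Reg2, 0.592 for Reg3a, 0.390 for Reg3b, 0.892 for Reg3d and 0.151 for Reg3g, with permutation adjusted p between 0.603 and 0.856. The relation therefore rested on these 3 tumours. For Reg3g it rested on WT E, since r was 0.508 without WT E (unadjusted permutation p = 0.137) and 0.742 without KO E (unadjusted permutation p = 0.0134). Reg3d had 1 count in all among the 8 tumours. The labels give no batch within which it could be recomputed.

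**Figure D4:**
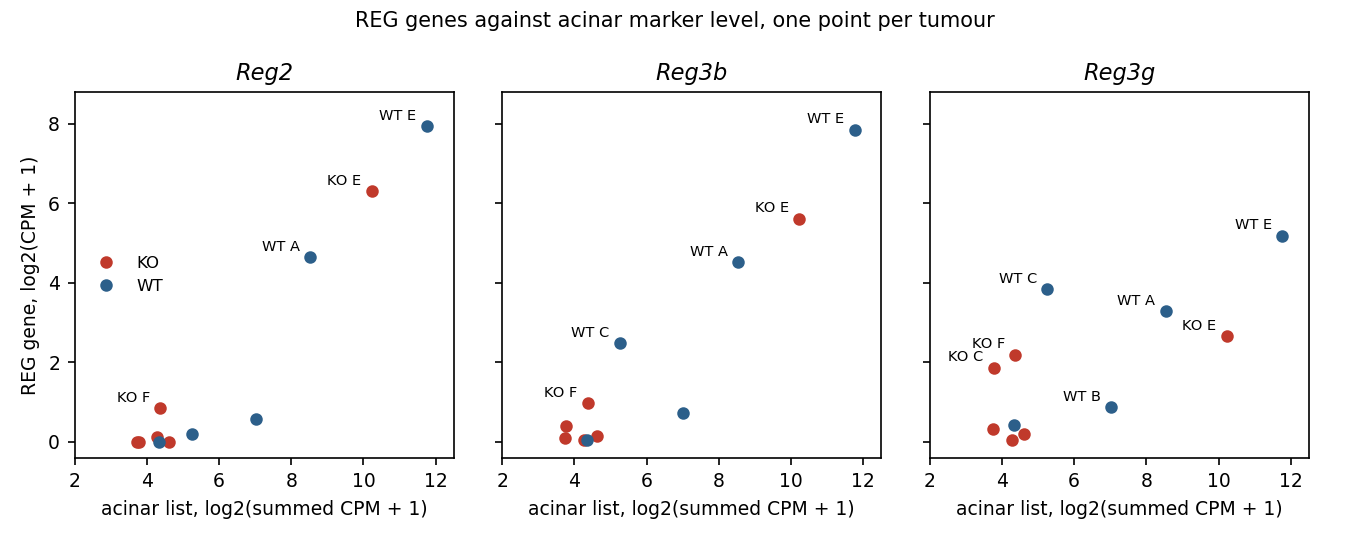
Level of Reg2, Reg3b and Reg3g in log2(CPM + 1) against the summed level of 28 acinar genes in log2(summed CPM + 1), with 1 point per tumour (KO red, WT blue) and letters for the higher points. Reg2 is higher at each step of the acinar level from WT A through KO E to WT E, and in the Reg3g panel WT C, KO F and KO C lie above 1.8 at low acinar levels where KO A, KO B, KO D and WT D lie near 0.

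The relation with islet markers did not pass the test. Over the same 11 tumours r with the summed islet level was between 0.460 (Reg3g) and 0.620 (Reg3d), and 0 of 6 relations passed (permutation adjusted p between 0.104 and 0.158). Without WT E and KO C, the tumours farthest from the median, r was between −0.0856 and 0.225. The summed islet level did not follow the hormones below WT E. KO D reached 188 CPM with 0 counts of Ins2 and Gcg, and WT A 113 CPM with 643 counts of Ins2. The correlation with this sum therefore cannot speak for islet tissue. The islet hormones did not follow the E tumours, since Ins2, which encodes insulin, stood at 4525 counts in WT E, 643 in WT A and 642 in KO F but at 1 count in KO E. Gcg, which encodes glucagon, had 2264 counts in WT E, 425 in KO F, 102 in WT A and 4 in KO E. KO E was thus high in acinar and REG transcripts and nearly without these islet hormones, whereas KO F held the hormones with little acinar transcript.

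Other tissues that express REG genes were checked through their own lists. Intestinal markers summed to between 76.6 and 265 CPM in KO tumours and between 25.7 and 191 CPM in WT tumours (18 genes, of which Cdx1, Mptx1, Mptx2 and Defa24 were at 0 in every tumour), with Vil1, a brush-border protein, between 64.3 and 197 CPM in KO and between 14.6 and 153 CPM in WT. Stomach markers summed to between 97.0 and 2699 CPM in KO and between 82.1 and 1535 CPM in WT (12 genes, Atp4b at 0 in every tumour). KO A was highest for the stomach list with 10 REG counts, and WT C, where Reg3g led, was second. Gkn1, a gastric mucosal protein, was between 0.281 and 46.6 CPM in KO and between 1.02 and 27.0 CPM in WT. Of 9 intestinal genes tested, 0 passed the edgeR threshold and 3 were lower in KO at an unadjusted p under 0.05. Of 9 stomach genes, 0 passed, 1 was higher and 1 lower. Among all tested genes 8.57% were higher and 15.5% lower. DESeq2 called 2 intestinal genes and 1 stomach gene lower, against 4.81% of all genes with a DESeq2 adjusted p. Vil1 gave 197 of the 265 CPM of the intestinal sum in KO A and 153 of 182 in WT D. Carcinoma epithelial markers summed to between 2777 and 5678 CPM in KO and between 3118 and 9652 CPM in WT, and all 10 had lower fitted values in KO, with a median log2 fold change of −0.70 (0 past the edgeR threshold and 0 called by DESeq2, 3 lower at an unadjusted p under 0.05, where 15.5% of all tested genes were). The part of these tissues in the REG levels was not tested.

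The members moved together, with Reg3g apart. Over 11 tumours the 10 pairs among Reg1, Reg2, Reg3a, Reg3b and Reg3d had r between 0.915 and 0.997 on the log2(CPM + 1) scale, and the 5 pairs with Reg3g had r between 0.714 and 0.864. These are descriptions over libraries in which WT E, KO E and WT A are high throughout. Among 14900 genes with a mean of at least 1 CPM, the 5 most like Reg2 included Pnliprp1 (a pancreatic lipase-related protein, r = 0.999), Prss2 (a trypsinogen, 0.987), Ctrb1 (a chymotrypsinogen, 0.984) and Klk1 (a tissue kallikrein, 0.983). The nearest gene to Reg1 was Reg3b (r = 0.997), followed by Reg2, Pnliprp1, Prss2 and Ctrb1, and the nearest to Reg3b was Reg1, followed by Gp2 (a zymogen granule membrane protein), Reg2, Pnliprp1 and Prss2. Reg3a was most like Klk1 (r = 0.993), with Reg3d, Gp2 and Reg2 also among its 5 nearest genes, and Reg3d was most like Reg3a (r = 0.990), with Klk1, Gp2 and the chymotrypsin-like gene Ctrl also among its 5. Reg3g was most like Gar1 (r = 0.909), a component of small nucleolar ribonucleoproteins, then Reg3b (0.864), Reg1 (0.860), Wdr43 (0.843) and Tbl3 (0.832), both proteins of ribosome assembly. No digestive enzyme was among the 5 nearest genes of Reg3g. Its r values are the highest of 14900 over 11 tumours, and whether they exceed what such a search yields was not tested.

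Genes that act upstream of REG transcription, and the REG receptor gene, were counted from a list of 23. Of 21 that were tested, 0 passed the edgeR threshold, 4 were higher and 1 lower in KO at an unadjusted p under 0.05, against 8.57% higher and 15.5% lower among all tested genes, DESeq2 called 1 (Extl3, higher, as were 3.19% of all genes with a DESeq2 adjusted p), and the median log2 fold change was 0.17. Extl3, the receptor gene, averaged 96.4 ± 15.3 CPM over 6 KO tumours and 58.5 ± 18.1 CPM over 5 WT tumours (SD), with a fitted log2 difference of 0.72 ± 0.20 (SE) and an edgeR adjusted p of 0.0943. Its KO tumours ranged from 80.9 to 116 CPM and its WT tumours from 39.2 to 78.4 CPM, without overlap, as for 3.6% of all tested genes. It passed the threshold without WT D (edgeR adjusted p = 0.0461), without WT E (0.0327) and with DESeq2 (0.0293). In the fit that adjusts for ribosomal RNA it was at 0.52 (edgeR adjusted p = 0.296), and with the replicate block at 0.71 (0.287). Over all genes, edgeR called 203 of 16830 higher in KO without WT D and 608 of 16731 without WT E.

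The cytokine and Stat3 arm of the list had no tested difference. Il6, an inducer of acute-phase genes, had 3.003 ± 1.72 CPM in KO and 4.48 ± 2.41 CPM in WT (log2 fold change −0.57, edgeR adjusted p = 0.516), and Il22, an inducer of Reg3g in gut epithelium, had 1 count in 1 KO tumour and 0 in all others. Stat3, the transcription factor that both activate, averaged 195 ± 43.7 CPM over KO tumours and 152 ± 49.7 CPM over WT tumours (log2 fold change 0.36, edgeR adjusted p = 0.363). Its feedback inhibitor Socs3 had a log2 fold change of −0.10 (edgeR adjusted p = 0.847), which turned positive without WT A and in the fit that adjusts for ribosomal RNA, and Osmr, the oncostatin M receptor, had 0.17 (0.742). The receptor chains Il17ra and Il6ra both had a log2 fold change of 0.79 (edgeR adjusted p = 0.120 and 0.132), Jak1, a kinase of cytokine receptors, had 0.60 (0.133), and Il11ra1, the interleukin 11 receptor, had −0.62 (0.180). Without WT E, Il17ra and Jak1 passed the threshold (edgeR adjusted p = 0.0306 and 0.0434). In the fit that adjusts for ribosomal RNA, Il17ra came to 0.53, Il6ra to 0.49, Jak1 to 0.37, Stat3 to 0.10 and Osmr to 0.09, and Stat3 was at 0.20 without WT B. Il11ra1 was at −0.41 without WT A, Il6 at −0.90 without KO C, and Osmr between 0.03 without WT A and 0.50 without WT E.

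Genes known from injured pancreas were counted in the same way. Of 15 tested members of a list of 16, 0 passed the edgeR threshold, against 0.0181% of all tested genes. At an unadjusted edgeR p under 0.05, 1 was higher and 2 were lower in KO (all tested genes 8.57% and 15.5%). DESeq2 called 1 (Lcn2, higher, as were 3.19% of all genes with a DESeq2 adjusted p). The median log2 fold change was −0.32. Lcn2, a secreted iron-siderophore carrier of inflamed epithelium, averaged 180 ± 76.3 CPM over KO tumours and 63.8 ± 27.7 CPM over WT tumours, with a fitted log2 difference of 1.499 ± 0.36 (SE) and an edgeR adjusted p of 0.0847. It passed the threshold without WT E (edgeR adjusted p = 0.0362) and with DESeq2 (0.00307). In the fit that adjusts for ribosomal RNA it was at 1.53 (edgeR adjusted p = 0.216), and with the replicate block at 1.65 (0.222). The duct keratin Krt19 had a log2 fold change of −0.92 (edgeR adjusted p = 0.128), the stress gene Nupr1, first described in pancreatitis, −0.88 (0.150, and 0.0442 without WT D), and the duct and progenitor factor Sox9 −0.84 (0.246), which came to −0.12 without WT C and −0.37 with the replicate block.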

How the data were processed

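Per the labels and the study's methods, RNA was extracted from a piece of each tumour, and libraries were made with a directional kit. Trimmomatic was used to trim the read pairs, which were then aligned in strand-specific mode to GRCm38 with HISAT2 (version 2.1.0) and counted over exons with HTSeq (version 0.11.2) using unique alignments of mapping quality above 10. Reads shared equally by close REG genes were thereby left out. The authors deposited raw counts per gene, which were used for all tests, and normalised values (a signal, raw counts divided by a size factor per sample), which served only as an alternative scale for correlations.

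Symbols were assigned with GENCODE M21, which matched 54079 of 54232 identifiers. KO and WT tumours were compared in edgeR 4.0.16 (R 4.3.3) by quasi-likelihood F-tests, after TMM normalisation and filterByExpr and without covariates. P-values were adjusted over 16536 genes by the Benjamini-Hochberg method, with a threshold of 0.05. Members removed by the filter were taken from a fit without it. Standard errors are on the log2 scale. DESeq2 (version 1.42.0), median-of-ratios factors, other filters, a ribosomal RNA covariate, a replicate block and left-out tumours were alternatives. Levels are CPM with a pseudocount of 1 before log2. Correlations used 100000 permutations. Motifs were matched as exact letters. The edgeR fit was tested on simulated data. Sequencing depth ranged from 16294128 to 31121422 counts per tumour, and no 2 libraries of a group agreed within sampling noise (over 25 pairs, chi-square divided by its degrees of freedom was at least 36.8).

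Groups and replicate letters came from the sample titles. The labels do not state further technical structure, so p-values measure the spread between these tumours. The members and gene lists were chosen with earlier results of these data known. Named were all 7 REG genes, Il6, Il22, Osmr, Stat3, Socs3 and Extl3 with the 4 further signalling genes of smallest p, the 4 injury genes of smallest p, 8 marker genes, and for each REG gene with a mean of at least 1 CPM the 5 genes of highest Pearson r, of which 1 is not reported here.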

Additional observations from a re-analysis of the deposited data

Results flagged for a closer look

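Single tumours were set well apart from their group in 8 of 24 sets of values examined (7 REG genes and 5 marker lists in each genotype, gap to the nearest tumour over the range of the group). A chance rate of about 1 in 20 such groups was assumed, which does not hold for groups with many tumours at 0. Reg3d and Reg4 were at 0 in 5 of 6 KO tumours, where any count sets the last tumour apart. The sets are also not separate, since 6 of the 8 are the same tumour, KO E, in transcripts that move together. KO E was far above the other KO tumours in Reg1 (5.678 in log2(CPM + 1), against 0.00 to 1.34 in the others), Reg2 (6.299, against 0.00 to 0.853), Reg3a (4.071, against 0.00 to 0.0575), Reg3b (5.616, against 0.0575 to 0.976) and Reg3d (2.472, with all others at 0). The same tumour stood apart in the summed level of the acinar list, at 10.23 in log2(summed CPM + 1), against 3.74 to 4.61 in the other KO tumours. WT E was far above the other WT tumours in Reg3d (4.409, against 0.00 to 0.935). KO D was apart in Reg4 at 0.1128, which is 2 counts against 0 in the other KO tumours and lies under the 3 counts taken as the limit of detection. Neither genotype had a tumour apart in Reg3g.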

How the results depend on the processing

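None of the 6 cluster genes passed the threshold under any alternative that gave it a p-value. Fold changes of Reg1, Reg2, Reg3a, Reg3b and Reg3d kept a negative sign with median-of-ratios factors, DESeq2, the ribosomal RNA covariate and the replicate block, and those of Reg3g in every fit that tested it. With at least 10 counts required in every tumour, no REG gene was left to test. With 1 tumour left out, log2 fold changes ranged from −6.86 to 0.43 for Reg1, −8.27 to 1.14 for Reg2, −9.36 to 1.38 for Reg3a, −7.43 to 0.27 for Reg3b, −9.74 to 1.60 for Reg3d and −3.15 to −1.55 for Reg3g. The values above 0 were those without WT E. Without WT E, KO E and WT A together, an alternative chosen after seeing the data, Reg3a was at 0.19, Il6 at 0.0398 and Socs3 at 0.28. In that fit Reg1, Reg2, Reg3b and Reg3g stayed below 0. Reg3d was below 0 as well, with 1 count left, in WT B. Socs3 was at 0.0246 with the ribosomal RNA covariate and ranged from −0.24 to 0.12 with 1 tumour left out, the highest without WT A. In these cases the cause was not tested.

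With the replicate block, log2 fold changes were −4.53 for Reg1, −3.73 for Reg2, −3.17 for Reg3a, −3.77 for Reg3b, −3.04 for Reg3d and −3.11 for Reg3g, none past the threshold. Over all genes the block called 8 higher and 1 lower, and 225 and 62 in the fit without the filter, from which Reg2, Reg3a and Reg3d are taken. Tumours with the same letter did not deviate together (correlations of deviations between −0.172 and 0.163, and 1 of 5 KO tumours correlated best with its own letter), so the letters do not pair the samples.

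Over all genes, 3 were higher and 0 lower in KO (edgeR, with 1417 higher and 2555 lower at an unadjusted p under 0.05). Without a filter the counts were 39 higher and 6 lower, with DESeq2 593 and 896, with the ribosomal RNA covariate 2 and 1, with at least 10 counts in every tumour 0 and 0 (1183 and 2331 at an unadjusted p under 0.05), and without WT E and KO E together 62 and 14. With 1 tumour left out between 0 and 608 genes were higher and between 0 and 1248 lower, most of them without WT E.

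Correlations with the acinar level ranged, with 1 tumour left out, from 0.912 to 0.979 for Reg1, 0.926 to 0.989 for Reg2, 0.910 to 0.973 for Reg3a, 0.904 to 0.982 for Reg3b, 0.890 to 0.941 for Reg3d and 0.508 to 0.820 for Reg3g, where the lowest was without WT E (unadjusted permutation p = 0.137). Without WT E and KO E, Reg3g was at 0.467. Without WT A as well, they were 0.465 for Reg1, 0.492 for Reg2, 0.592 for Reg3a, 0.390 for Reg3b, 0.892 for Reg3d and 0.151 for Reg3g, none past the threshold. Correlations with the islet level ranged from 0.226 to 0.648 for Reg1, 0.115 to 0.594 for Reg2, 0.118 to 0.652 for Reg3a, 0.196 to 0.648 for Reg3b, 0.145 to 0.701 for Reg3d and 0.0660 to 0.622 for Reg3g. The unadjusted permutation p was under 0.05 for Reg1 without KO D (0.0430) and without WT A (0.0487), Reg3b without KO D (0.0475), Reg3d without KO C (0.0495) and Reg3g without KO C (0.0466). The correlations turned negative without WT E and KO C for Reg2 (−0.0856) and Reg3a (−0.0185), and without WT E, KO E and WT A for Reg3a (−0.360) and Reg3d (−0.223).

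Depth limits Reg3d and Reg4, which were at 0 in 7 and 6 tumours.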
